A study of Mus musculus with 4 samples.

Results

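The genes described here are the chaperones and prolyl isomerases of mouse lineage-negative bone marrow: the heat shock proteins (Hsp), the J proteins (Dnaja, Dnajb and Dnajc), the FK506-binding proteins (Fkbp), the cyclophilins (Ppi), the protein disulfide isomerases (Pdia) and the chaperonin subunits (Cct). They were chosen by gene symbol alone, and 83 of the 13840 genes with a named probe belonged to these 8 families (21 Hsp, 4 Dnaja, 11 Dnajb, 19 Dnajc, 11 Fkbp, 5 Ppi, 3 Pdia and 9 Cct). Ppic was left out by the rule, and no probe with a single symbol was named Hspa8, Hspa1a, Hspa1b, Hsp90aa1, Hsp90ab1 or Pdia3, so those genes were not analysed here. A few members carry a family symbol without being chaperones themselves, such as Hspbap1, which encodes a protein that binds a small heat shock protein.

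Single-colour Applied Biosystems arrays were hybridised with RNA of lineage-negative marrow, the cells left after magnetic removal of cells that carry markers of mature lineages. There were 2 arrays from wild-type C57BL/6 mice and 2 from Mtg16-null mice backcrossed into C57BL/6 (N4 in the labels), and each of 2 array lots held 1 array of each genotype. Every array was made from a pool of 4 females aged 8 to 12 weeks. MTG16, encoded by Cbfa2t3, is a corepressor of transcription in blood progenitors, and the study asked about stem cell mobilization and progenitor proliferation without it. The labels do not say whether the 2 arrays of a genotype came from separate pools, so the tests measure only the spread between these arrays, which may be technical.

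Chaperones bind unfolded proteins and let them fold. Hsp70 proteins do so in cycles of ATP hydrolysis that J proteins start, Hsp90 proteins finish selected clients such as receptors and kinases, and the chaperonin CCT folds actin and tubulin inside a closed ring. Prolyl isomerases of the FKBP and cyclophilin families turn peptide bonds before proline and are the targets of FK506 and cyclosporin. The endoplasmic reticulum has its own set of these proteins, made in large amounts by secretory cells such as granulocyte precursors and plasma cells and raised further by the unfolded protein response.

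Signals are given in the deposited units, which had been scaled to 1 common distribution with a median of 470 on each array. A probe was tested where its mean log2 signal was in the brighter 50% of all probes. This kept 68 of the 83 members, and differences are null minus wild type on the log2 scale. The tested members included some of the most abundant transcripts measured, with 23 above percentile 95 of mean level. Ppia, cyclophilin A, lay at percentile 99.9. The other 15 members read between 49.7 and 507 units, and 10 of them never exceeded the 310 units that Y-linked probes reached on these arrays of female mice. The 15 were Cct6b, Cct8l1, Dnaja1, Dnajb7, Dnajb8, Dnajb13, Dnajc5b, Dnajc5g, Dnajc6, Fkbp14, Hspa12a, Hspa12b, Hspb3, Hspb7 and Hspb8, and no difference is given for them.

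The 4 arrays differed widely in cell type markers, and the null arrays were richer in early granulocyte transcripts and poorer in late ones. Among 8 early granulocyte markers (Elane, Prtn3, Mpo and others), 8 of 8 were higher, with a summed signal of 1719083 and 1625753 in wild type against 4181813 and 3525413 in the null arrays. All 11 late neutrophil markers with a probe were lower, with sums of 1369465 and 1485619 against 158427 and 148105. Erythroid markers were lower in 9 of 9 tested (sums 991412 and 830190 against 617372 and 545151), and megakaryocyte markers higher in 5 of 6 (486859 and 486556 against 937512 and 820814). The other lists were higher for most members: 5 of 5 B lineage genes tested (41021 and 33343 against 81115 and 72192), 7 of 9 stem and multipotent genes (128056 and 130213 against 166718 and 168839), 4 of 5 T and natural killer genes (72756 and 73698 against 247023 and 215663) and 3 of 5 plasma cell genes (43948 and 51641 against 58168 and 63609). Ms4a1, a marker of mature B cells that was too dim on average to be tested, went the other way, at 1444 and 1767 units in wild type against 68 and 143 in the null arrays. Most of the T and natural killer sum came from Nkg7, at 66360 and 66507 units against 237264 and 206814. Most of the plasma cell sum came from Xbp1, also a gene of the unfolded protein response, at 32819 and 35565 units against 43308 and 49383. The 2 lower plasma cell genes were Irf4 (log2 difference -0.44) and Tnfrsf17 (-0.68), both with overlapping groups. Tek, of the stem and multipotent list, passed the filter on brightness only through its null arrays (184 and 263 units against 737 and 967). The same held for Sdc1, of the plasma cell list (341 and 485 units against 437 and 716). These genes give no support to the counts of their lists. No marker was listed at 0. In these bulk samples, fewer cells of a type and less RNA per cell cannot be told apart. The probe of Cbfa2t3 itself read 80854 and 100256 units in wild type against 95520 and 118572 in the null arrays (log2 difference 0.24, limma adjusted p = 0.702), and since its place relative to the deletion is not given, it does not check the labels.

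Over all members together, the genotypes differed little. The median log2 difference of the 68 tested members was -0.03, against -0.02 over all 8445 genes tested, and it was -0.05 in lot 1 and -0.01 in lot 2. None of the members passed limma at an adjusted p under 0.05 (smallest adjusted p = 0.101, for Fkbp11), a threshold that 0.118% of all genes passed. At an unadjusted p under 0.05, 7 members were higher and 5 lower, 10.3% and 7.35% of those tested, beside 9.65% and 6.83% of all genes. At least 1.5-fold in both lots, 5 were higher and 3 lower (7.35% and 4.41%), beside 8.54% and 5.75% of all genes. These shares lay near the background, and nothing particular to the members is read from them.

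The families differed from each other within that total. The Pdia median was 0.60 (3 tested, 0.47 in lot 1 and 0.73 in lot 2) and the Fkbp median 0.47 (10 tested, 0.31 and 0.67). The Ppi median was 0.06 (5 tested) and the Dnajc median -0.09 (16 tested). The Cct median was -0.12 (7 tested), the Dnaja median -0.14 (3 tested), the Hsp median -0.14 (16 tested) and the Dnajb median -0.21 (8 tested). The Fkbp and Pdia members supplied 5 of the 7 that were higher at an unadjusted p under 0.05. The Hsp family held both directions, with the endoplasmic reticulum members above 0 and the small heat shock protein gene Hspb6 among the lowest. Leaving out 1 array moved these medians: without wild-type array 1, Hsp went to 0.093 and Dnajc to 0.0097. Dnajb went to 0.0069 without wild-type array 2, and Cct to 0.031 without null array 2. The Ppi median was -0.086 without null array 1 and -0.024 without wild-type array 2. The Pdia median ran from 0.26 without wild-type array 2 to 0.94 without wild-type array 1, and the Fkbp median from 0.32 to 0.70 without null arrays 2 and 1. The order of the families with medians near 0 is therefore not fixed by these arrays. These medians are descriptions, and no test of a family was made.

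**Figure D1:**
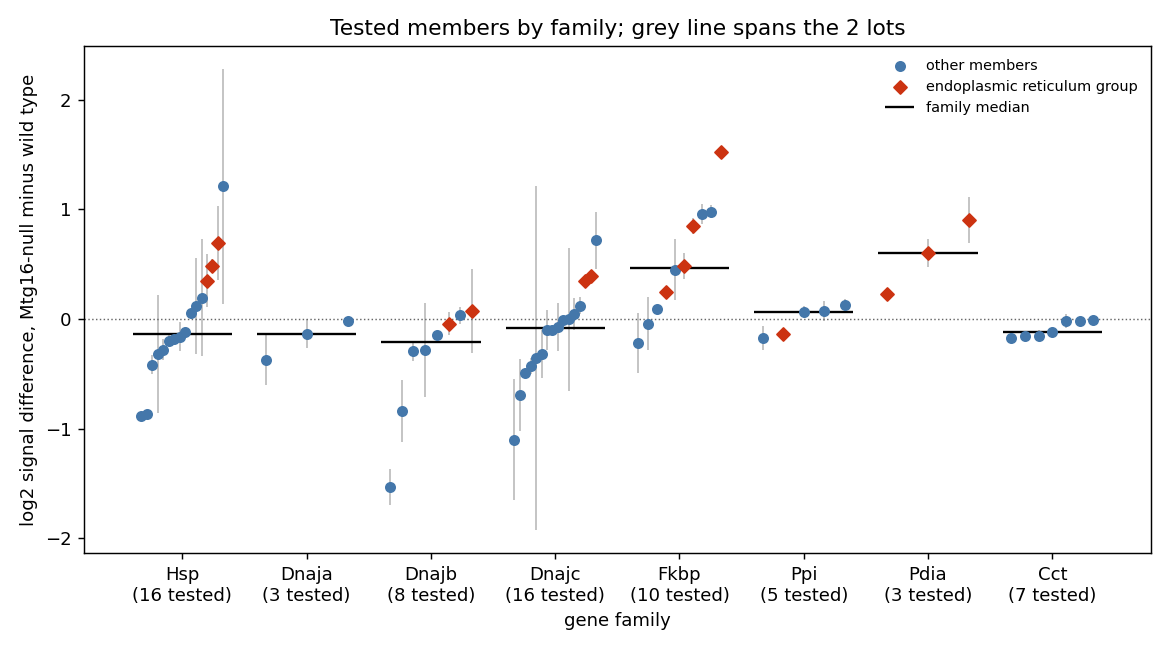
Log2 difference in signal, null minus wild type, for the 68 tested members by family (one point per gene, mean of both lots; grey line from the lot 1 to the lot 2 value; black bar, family median). The Pdia and Fkbp medians lie at 0.60 and 0.47 and the other family medians between -0.21 and 0.06; red diamonds mark genes of the endoplasmic reticulum group.

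The members listed for the endoplasmic reticulum read higher in the null arrays for most genes, though none passed over all genes. Of 16 such members, 15 were tested: the Hsp70 genes Hspa5 and Hspa13, the Hsp90 gene Hsp90b1, the J protein genes Dnajb9, Dnajb11, Dnajc1 and Dnajc3, the prolyl isomerase genes Fkbp2, Fkbp7, Fkbp9, Fkbp11 and Ppib, and the disulfide isomerase genes Pdia4, Pdia5 and Pdia6. The median of their log2 differences was 0.39, with 0.36 for lot 1 and 0.54 for lot 2, while the 53 tested members outside the group had a median of -0.12. The list may not hold every member of this compartment. Of the members outside it, 40 were assigned to no group, with 12 higher and 28 lower by sign. The J protein genes Dnajc18 (-1.10, without overlap) and Dnajc16 (-0.07) were among these 40, so the counts below hold for the list alone. In 12 of the 15 (80.0%) the null array was higher in both lots, beside 33.6% of all genes, and 1 (6.67%) was lower in both lots, beside 36.8%. Both null arrays lay above both wild-type arrays for 11 of the 15 (73.3%), beside 22.6% of all genes, and both lay below for 0 of them, beside 23.1%. At an unadjusted p under 0.05, 4 were higher (Fkbp11, Fkbp9, Pdia6 and Hsp90b1; 26.7%, beside 9.65% of all genes) and 0 lower (beside 6.83%), and 0 passed at an adjusted p under 0.05. With the array lot as a block, 6 were higher at an unadjusted p under 0.05 (40.0%, beside 13.3% of all genes) and 0 lower (beside 11% of all genes); Hspa5, Pdia4 and Fkbp7 were added to the count and Hsp90b1 was lost from it. The count of higher genes in the fit without the block fell when either null array was left out. The group median stayed between 0.33 and 0.43 with any array left out. The summed signals of the early granulocyte, megakaryocyte, stem and multipotent, B lineage and T and natural killer markers were higher on the null arrays. So was the plasma cell sum, most of which was Xbp1, a gene of the stress response list below. The part of these markers in the result was not tested.

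**Figure D2:**
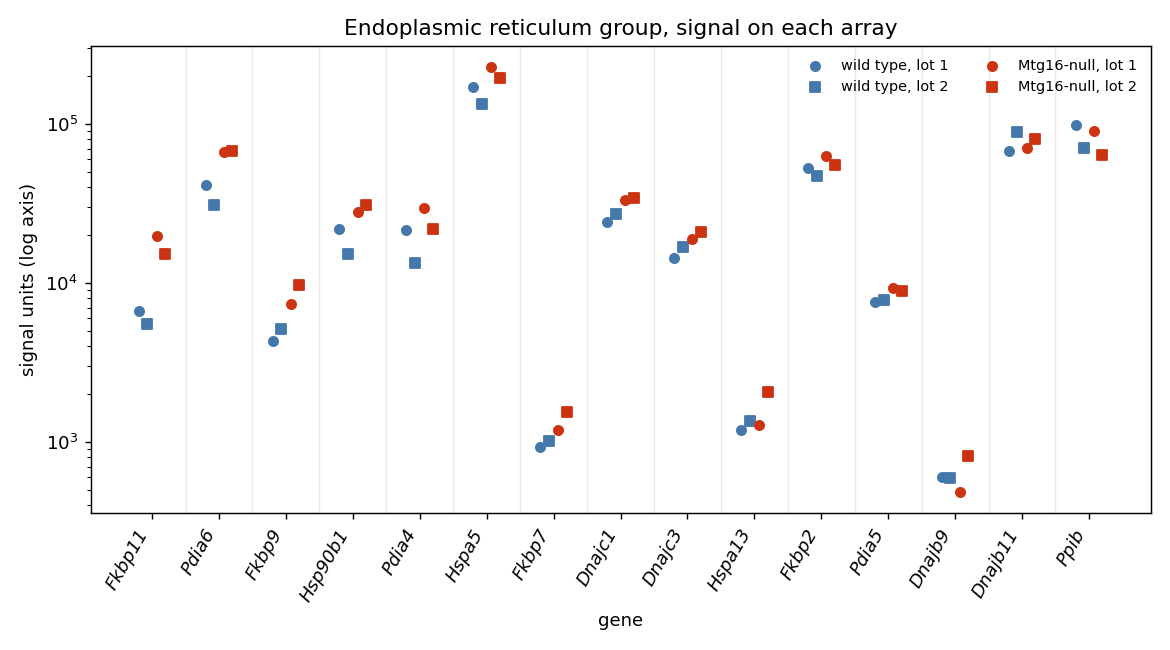
Signal units on a log axis for the 15 tested members of the endoplasmic reticulum group, one point per array (blue, wild type; red, Mtg16-null; circles, lot 1; squares, lot 2), in order of their log2 difference. For 11 genes both red points lie above both blue points, and the levels span from percentile 56.3, for Dnajb9, to percentile 98.2, for Hspa5.

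The same promoter motif occurred in 4 of these genes, which are shown because the unfolded protein response acts through it. The endoplasmic reticulum stress element, CCAAT and CCACG with 9 bases of any kind between them, was searched on both strands in the RefSeq promoter windows of build GRCm38.p6, 250 bases before to 50 bases after a start. It was present in 39 of 32851 windows (0.119%) and in 4 of the 73 members with a window, Hspa5, Hsp90b1, Pdia6 and Dnajc3. All 4 belong to the endoplasmic reticulum group, of which 15 members had a window. The windows read 5′ to 3′ on the gene's strand, with the motif in capitals.
Hspa5 (chr2:34771840-34772139, plus strand): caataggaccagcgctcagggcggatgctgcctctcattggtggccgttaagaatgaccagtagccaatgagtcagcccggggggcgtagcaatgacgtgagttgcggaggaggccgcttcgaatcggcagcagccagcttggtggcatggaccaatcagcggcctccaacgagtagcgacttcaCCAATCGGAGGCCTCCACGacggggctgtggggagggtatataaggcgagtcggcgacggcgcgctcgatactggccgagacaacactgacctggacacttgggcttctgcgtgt
Hsp90b1 (chr10:86705395-86705694, minus strand): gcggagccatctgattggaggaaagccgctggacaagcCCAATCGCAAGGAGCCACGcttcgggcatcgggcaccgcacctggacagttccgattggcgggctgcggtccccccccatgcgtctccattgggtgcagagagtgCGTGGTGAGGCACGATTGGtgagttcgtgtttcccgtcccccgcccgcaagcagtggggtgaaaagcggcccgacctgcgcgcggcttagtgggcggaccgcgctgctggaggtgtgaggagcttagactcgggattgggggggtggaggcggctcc
Pdia6 (chr12:17266339-17266638, plus strand): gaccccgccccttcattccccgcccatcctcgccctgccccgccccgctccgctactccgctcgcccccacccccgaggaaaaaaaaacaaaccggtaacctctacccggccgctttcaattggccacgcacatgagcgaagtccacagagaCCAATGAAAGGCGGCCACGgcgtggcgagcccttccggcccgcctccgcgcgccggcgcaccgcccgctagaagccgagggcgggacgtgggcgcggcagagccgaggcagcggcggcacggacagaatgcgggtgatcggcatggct
Dnajc3 (chr14:118937682-118937981, plus strand): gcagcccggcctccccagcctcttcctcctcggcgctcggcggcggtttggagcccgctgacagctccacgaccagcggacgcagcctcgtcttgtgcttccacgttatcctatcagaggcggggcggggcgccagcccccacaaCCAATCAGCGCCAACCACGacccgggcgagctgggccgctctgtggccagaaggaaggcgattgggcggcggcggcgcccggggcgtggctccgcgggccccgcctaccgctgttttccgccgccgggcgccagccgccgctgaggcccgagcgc
Hsp90b1 held the motif at a pair of sites, one on each strand, and the other 3 genes held it once. The site began 65 bases before the start in Hspa5, 98 in Pdia6 and 105 in Dnajc3. The second form of the element, ATTGG and CCACG with 1 base between them, was in 0.0365% of windows and in 1 member, Dnajb11, and the shorter unfolded protein response element TGACGTGG was in 0.676% of windows and in 1 member, Fkbp1b. These matches describe letters in the windows and do not show binding, and their part in the differences was not tested.

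All 4 genes with the first element had both null arrays above both wild-type arrays, as did 11 of the 15 tested genes of their group (73.3%) and 22.6% of all genes. The differences of the 4 genes were unequal in size. Hspa5 encodes BiP, the main Hsp70 of the endoplasmic reticulum and a sensor of unfolded proteins. It read 170037 and 132908 units in wild type against 227801 and 193816 in the null arrays, 1.40-fold higher (log2 difference 0.48, SE 0.22, limma adjusted p = 0.406). Hsp90b1 encodes GRP94, which folds Toll-like receptors and integrins, and read 21734 and 15127 units against 27794 and 30914, 1.62-fold higher (0.69, SE 0.25, adjusted p = 0.302). Its difference was 0.35 in lot 1 and 1.03 in lot 2, so the lots gave unequal sizes in the same direction. Pdia6, a disulfide isomerase that also acts on the stress sensor IRE1, read 41181 and 31044 units in wild type against 66360 and 67186 in the null arrays, 1.87-fold higher (0.90, SE 0.22, adjusted p = 0.179). Dnajc3, a BiP partner also known as an inhibitor of the kinase PERK, read 14326 and 16897 against 18781 and 20926, 1.27-fold higher (0.35, SE 0.19, adjusted p = 0.483). The order of size was Pdia6, Hsp90b1, Hspa5 and Dnajc3, with neighbours closer than their standard errors, and none passed over all genes.

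The largest positive difference of any tested member was that of Fkbp11, a prolyl isomerase of the endoplasmic reticulum known from secretory cells. Its signal was 6621 and 5543 units in wild type against 19790 and 15320 in the null arrays, and the groups did not overlap. The means were 6082 ± 762 and 17555 ± 3161 units (SD, n = 2), 2.87-fold higher, with log2 differences of 1.58 in lot 1 and 1.47 in lot 2. With an SE of 0.23 the limma adjusted p was 0.101, or 0.113 with the lot as a block. It was below 0.05 with a variance trend in the fit (adjusted p = 0.0259), the single member among the 3.49% of all genes that passed there. It was also below 0.05 when the brightest 25% of probes alone were tested (limma adjusted p = 0.0224, where 5.86% of genes passed). Leaving out any 1 array kept the difference between 1.34 and 1.71.

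Fkbp9 and Fkbp7, calcium-binding prolyl isomerases of the same compartment, were higher by less. Fkbp9 read 4307 and 5151 units in wild type against 7383 and 9772 in the null arrays, 1.80-fold higher (log2 difference 0.85, SE 0.23, limma adjusted p = 0.218), with no overlap. Fkbp7 read 932 and 1019 units against 1196 and 1548, also without overlap (0.48, SE 0.21, adjusted p = 0.391). Fkbp2, a small member of the lumen, was at 53032 and 46900 units against 63101 and 55331, a difference of 0.24 (SE 0.19, adjusted p = 0.628). Thus the 4 tested Fkbp genes of the endoplasmic reticulum were all higher in both lots, over differences from 0.24 to 1.52.

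Pdia4, a disulfide isomerase with several catalytic domains, read lower in lot 2 than in lot 1 for both genotypes. In lot 1 the wild-type array read 21407 units and the null array 29692, and in lot 2 they read 13283 and 22006, with log2 differences of 0.47 and 0.73 (mean 0.60, SE 0.33, limma adjusted p = 0.480). Dropping wild-type array 1 gave 0.94, and dropping wild-type array 2 gave 0.26. Pdia5 was at 7626 and 7838 units in wild type against 9262 and 8881 in the null arrays, the smallest difference of the Pdia family (0.23, SE 0.17, adjusted p = 0.601). Its arrays did not overlap, since the replicates lay close together. Dnajc1, a membrane J protein that recruits BiP at the ribosome, read 24328 and 27339 units against 33113 and 34372 (0.39, SE 0.18, adjusted p = 0.401).

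The groups overlapped for the other 4 members. Ppib, cyclophilin B of the lumen, read 99239 and 70803 units in wild type against 90866 and 64236 in the null arrays, lower by a log2 difference of -0.13 in lot 1 and -0.14 in lot 2 (SE 0.29, limma adjusted p = 0.890). Dnajb11, the J protein ERdj3 that is secreted with its clients, was at 68081 and 89378 units against 71020 and 80616 (-0.04, SE 0.22, adjusted p = 0.957). Dnajb9, the J protein ERdj4, was faint at 600 and 596 units in wild type against 483 and 820 in the null arrays, and its lots went opposite ways (-0.31 and 0.46). Hspa13, a microsomal Hsp70, read 1182 and 1362 units against 1272 and 2054, with overlapping groups and a difference of 0.35 that was 0.003 without null array 2. The 95% intervals of these 4 genes together ran from -0.94 to 1.18 on the log2 scale. The difference of Fkbp9 lay within those of Dnajb9 and Hspa13 and above those of Ppib and Dnajb11.

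Outside the endoplasmic reticulum, the FK506-binding proteins FKBP12 and FKBP12.6 were among the higher members. Fkbp1a, which encodes FKBP12, the target of FK506 and rapamycin, read 3708 and 3124 units in wild type against 7609 and 5911 in the null arrays. It was 1.97-fold higher with no overlap (log2 difference 0.98, SE 0.23, limma adjusted p = 0.162). Its close relative Fkbp1b, a partner of ryanodine receptors, read 884 and 1205 units against 1829 and 2196, 1.94-fold higher (0.96, SE 0.24, adjusted p = 0.196). In both genes each null array lay above each wild-type array. Among the other cytosolic, nuclear and mitochondrial members, Fkbp3, a nuclear protein, had a difference of 0.09 (134256 and 157113 units against 143423 and 165953). Fkbp4, an Hsp90 partner of steroid receptors, had -0.04 (SE 0.25), and Fkbp8, which anchors Bcl2 at mitochondria, had -0.22 and lots of opposite sign (-0.49 and 0.06). Fkbp5, a glucocorticoid-induced Hsp90 partner, was at 2602 and 2631 units against 2927 and 4366 (0.45, SE 0.26, adjusted p = 0.501), and its difference was 0.16 without null array 2.

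**Figure D3:**
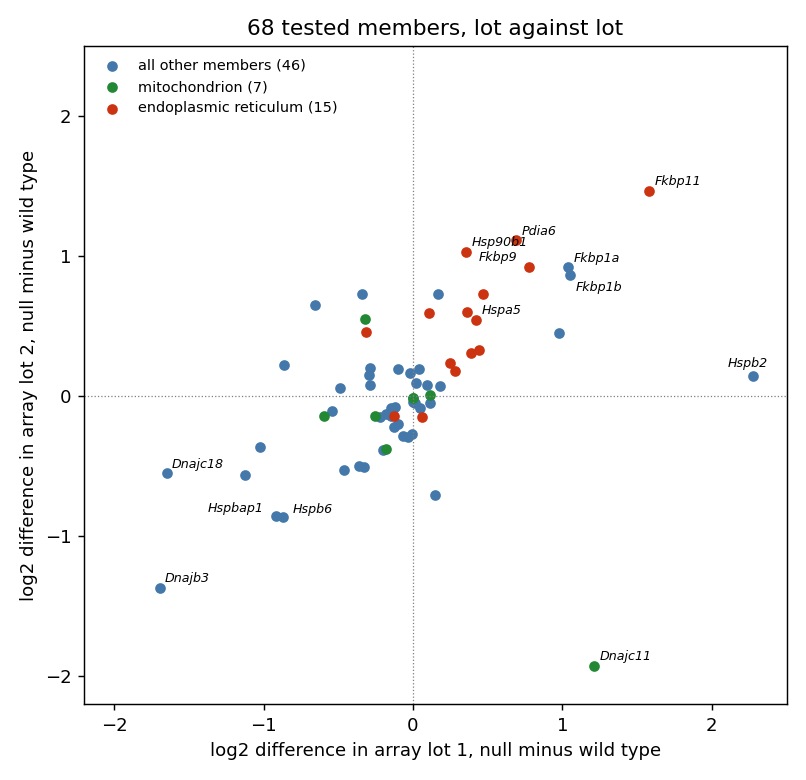
Log2 difference in lot 1 against that in lot 2 for the 68 tested members (red, endoplasmic reticulum group, 15; green, mitochondrial members, 7; blue, all others, 46). Fkbp11 lies at 1.58 and 1.47 and Dnajb3 at -1.70 and -1.37, while Dnajc11 (1.21 and -1.93) and Hspb2 (2.28 and 0.14) differ between the lots.

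The chaperonin subunits were abundant and had small differences between the genotypes. CCT is a ring of related subunits, and the 7 tested Cct genes lay between percentiles 97.5 and 99.1 of mean level. Cct2, the one with the smallest difference, read 511092 and 489671 units in wild type against 511092 and 484706 in the null arrays (log2 difference -0.01, 95% interval -0.47 to 0.45). Cct4 had the lowest value, with 124358 and 116978 units against 113915 and 100171 (-0.18, 95% interval -0.67 to 0.32). The signal of Cct3 differed more between lots than between genotypes, at 419560 and 390624 units in lot 1 and 642894 and 559053 in lot 2. All 7 differences were below 0, as were 4396 of the 8445 genes tested. In both lots 4 of the 7 (57.1%) were lower, beside 36.8% of all genes, and Cct5 and Cct6a had lots of opposite sign. At an unadjusted p under 0.05, 0 of the 7 were called, beside 9.65% of all genes higher and 6.83% lower. The Cct median of -0.12 turned to 0.03 without null array 2. Tcp1, another CCT subunit, which the rule does not take, had a difference of 0.20 (SE 0.23, limma adjusted p = 0.770).

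The 7 mitochondrial members had a median log2 difference of -0.20. At an unadjusted p under 0.05, 0 of them were called, beside 9.65% of all genes higher and 6.83% lower. Hspe1 and Hspd1 encode the lid and the barrel of the mitochondrial chaperonin and are transcribed from a shared promoter region. Hspe1 read 430446 and 496852 units in wild type against 379529 and 382407 in the null arrays (log2 difference -0.28, SE 0.18, limma adjusted p = 0.549). Hspd1 read 176289 and 173956 units against 147563 and 157486 (-0.20, SE 0.17, adjusted p = 0.666), and its other 2 probes gave -0.19 and -0.09. In both genes the 2 null arrays were below the 2 wild-type arrays by a small margin. Their RefSeq windows overlap and share a heat shock element of 3 units, GAA, TTC and GAA with 2 bases between neighbours, searched on both strands, which occurred in 0.603% of all windows. Among members it was also in Hsph1 and Dnajb6. The Hspd1 window is shown with the overlapping matches in capitals, and the part of this motif in the differences was not tested.
Hspd1 (chr1:55087883-55088182, minus strand): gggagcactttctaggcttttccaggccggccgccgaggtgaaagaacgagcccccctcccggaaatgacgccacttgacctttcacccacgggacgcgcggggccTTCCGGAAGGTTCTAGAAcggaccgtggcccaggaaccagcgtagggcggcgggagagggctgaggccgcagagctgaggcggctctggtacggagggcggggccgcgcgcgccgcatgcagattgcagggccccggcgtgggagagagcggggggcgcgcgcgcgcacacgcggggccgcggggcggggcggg
Hsph1, which encodes a heat-inducible Hsp110, had a difference of -0.12 and Dnajb6, a suppressor of protein aggregation, one of 0.03, so the 4 genes with this motif lay between -0.28 and 0.03. Hspa9, mortalin, the Hsp70 of mitochondria, was at 29586 and 18011 units against 23673 and 26395 (0.11, SE 0.30, adjusted p = 0.911), with lots of opposite sign. Dnaja3, its J protein partner Tid1, was at 4814 and 3975 units against 3179 and 3594 (-0.37, SE 0.20, adjusted p = 0.474), and its groups did not overlap.

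**Figure D4:**
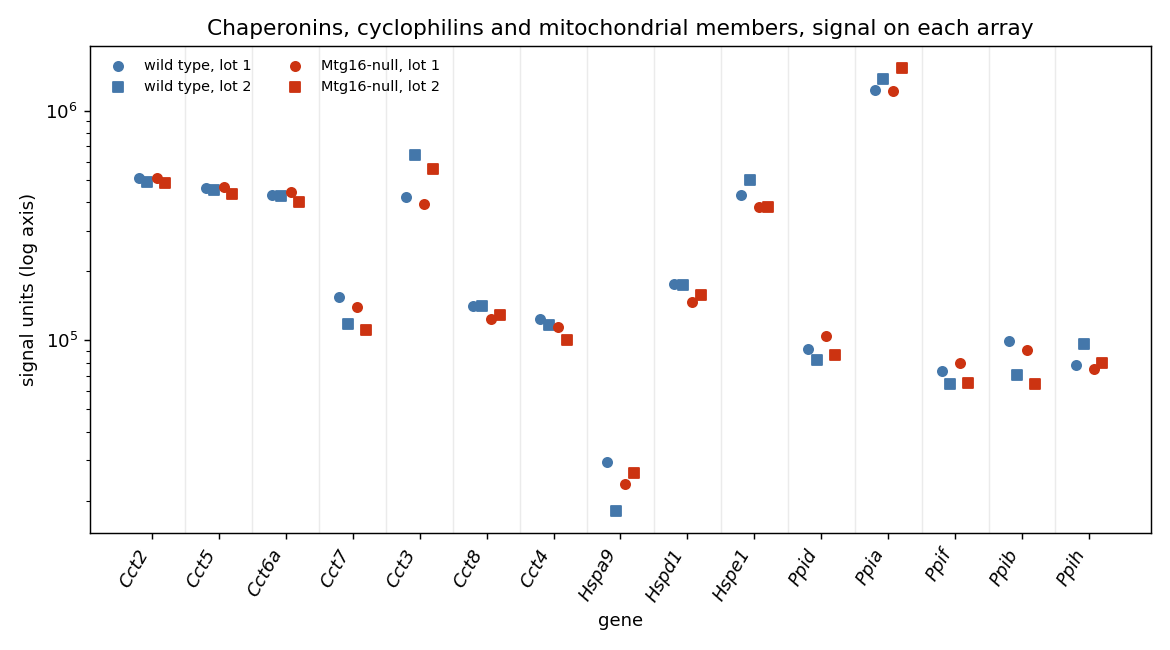
Signal units on a log axis for the 7 tested chaperonin genes, 3 mitochondrial members and 5 cyclophilins, one point per array (blue, wild type; red, Mtg16-null; circles, lot 1; squares, lot 2). Red and blue points of a gene lie close together, and for Cct3 the 2 lots are farther apart than the 2 genotypes.

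The 5 cyclophilins gave small differences of both signs. Ppia, the cytosolic receptor of cyclosporin, read 1232319 and 1371119 units in wild type against 1215689 and 1533373 in the null arrays (log2 difference 0.07, 95% interval -0.50 to 0.64). Ppid, an Hsp90 partner with a cyclophilin domain, was the highest of them at 0.13 (91471 and 82083 units against 103888 and 86377). Ppih, a part of the spliceosome, was the lowest at -0.18 (78422 and 96787 units against 75017 and 79297). Ppif of the mitochondrial matrix had 0.06. The groups overlapped for each of the 5.

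The lowest members were 3 J proteins, a small heat shock protein and Hspbap1. Dnajb3, a J protein related to Dnajb6, read 2072 and 2691 units in wild type against 640 and 1042 in the null arrays, 2.89-fold lower (log2 difference -1.53, SE 0.32, limma adjusted p = 0.141). Dnajb2, a J protein with ubiquitin-interacting motifs, read 4951 and 4179 units against 2269 and 2835, 1.79-fold lower (-0.84, SE 0.22, adjusted p = 0.198). Dnajc18 read 2534 and 2063 units in wild type against 808 and 1407 in the null arrays (-1.10, SE 0.34, adjusted p = 0.254), with -1.65 in lot 1 and -0.55 in lot 2. In all 3 genes both null arrays lay below both wild-type arrays. Hspb6, a small heat shock protein known from muscle, read 5155 and 6267 units against 2825 and 3452, 1.82-fold lower (-0.86, SE 0.22, adjusted p = 0.189). Hspbap1 read 6279 and 5646 units against 3328 and 3122, 1.85-fold lower (-0.89, SE 0.18, adjusted p = 0.130), and with the brightest 25% of probes it passed the test over all genes (limma adjusted p = 0.0389). Late neutrophil and erythroid markers were lower on the same arrays, and their part in these differences was not tested.

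Smaller negative differences with the same sign in both lots came from further J proteins and Hsp70 relatives. Dnajc24, an enzyme cofactor of diphthamide synthesis on elongation factor 2, read 21640 and 22196 units in wild type against 16882 and 15668 in the null arrays (log2 difference -0.43, SE 0.17, limma adjusted p = 0.341), without overlap. Hspa4l, an Hsp110 nucleotide exchange factor, read 8380 and 8934 units against 6672 and 6296 (-0.42, SE 0.17, adjusted p = 0.354), also without overlap. Dnajc4 read 15459 and 10837 units against 11231 and 7528, with overlap between lots but a like difference within each (-0.46 and -0.53). With the lot as a block, Dnajc4 and Dnajc24 reached an unadjusted p under 0.05 and Dnajc18 no longer did. Dnajb1, the main heat-inducible Hsp40, was at 21154 and 29355 units against 18400 and 22528 (-0.29, SE 0.25, adjusted p = 0.680). Dnajc9, a histone co-chaperone of dividing cells, was faint at 693 and 1192 units against 341 and 927, and its difference of -0.69 was 0.03 without null array 1. Dnajb1 and Dnajc9 both had overlapping groups. The Hsp and J protein genes not described elsewhere (Hspa1l, Hspa2, Hspa14, Hspbp1, Dnaja4, Dnajb4, Dnajb5, Dnajc7, Dnajc8, Dnajc14, Dnajc15 and Dnajc16) had differences between -0.32, for Dnajc8, and 0.12, for Dnajc7, and 0 of them reached an unadjusted p under 0.05.

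One J protein outside the endoplasmic reticulum, Dnajc12, was higher at an unadjusted p under 0.05. This co-chaperone of the aromatic amino acid hydroxylases read 5253 and 7650 units in wild type against 10346 and 10473 in the null arrays, 1.64-fold higher (log2 difference 0.72, SE 0.25, limma adjusted p = 0.291). The null arrays were nearly equal and the wild-type arrays were not, which left 0.98 in lot 1 and 0.45 in lot 2. The groups overlapped for Dnaja2 and Dnajc27: Dnaja2, a cytosolic Hsp70 partner, had -0.02, and Dnajc27, a small GTPase with a J domain, had -0.10 (207145 and 181637 units against 190353 and 171769). Hspb2, a muscle-type small heat shock protein, had the highest value of the Hsp family at 1.21, but it rested on null array 1: the signals were 311 and 437 units in wild type against 1509 and 481 in the null arrays. Without null array 1 the difference was 0.38. Hspb2 passed the filter on brightness only through its null arrays, since its wild-type mean lay under the cut (log2 signal 8.70).

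Co-chaperones and folding enzymes outside the named families held genes of both directions. Of 53 listed genes 37 had a probe and 35 were tested, with a median log2 difference of 0.08. At an unadjusted p under 0.05, 4 were higher (Unc45a, Calr, Sdf2l1 and P4hb, 11.4% of those tested) and 1 lower (Bag2, 2.86%), beside the 9.65% and 6.83% of all genes, and 0 passed at an adjusted p under 0.05. Unc45a passed the filter on brightness only through its null arrays, so it gives no support to this count. With the lot as a block 6 were higher (17.1%, beside 13.3% of all genes), with Sil1, a BiP exchange factor (0.59), and Txndc12, a thioredoxin-like protein of the endoplasmic reticulum (0.65), added. Calr, the lectin chaperone calreticulin, read 17830 and 21194 units in wild type against 39654 and 48796 in the null arrays, 2.26-fold higher (1.18, SE 0.21, limma adjusted p = 0.117). Sdf2l1, a BiP cofactor, read 21088 and 26001 units against 40703 and 49501, 1.92-fold higher (0.94, SE 0.22, adjusted p = 0.166). P4hb, the founding disulfide isomerase, read 181637 and 195542 units against 269107 and 289758, with 0.57 in each lot (adjusted p = 0.251). None of the groups of Calr, Sdf2l1 and P4hb overlapped, but these 3 were picked by their values. Of the 35 tested genes, 8 (22.9%, Unc45a among them) had both null arrays above both wild-type arrays, beside 22.6% of all genes. Both null arrays lay below for 5 (14.3%, beside 23.1%). Calr, Sdf2l1 and P4hb encode proteins of the endoplasmic reticulum. Not every such gene followed, since Canx, calnexin, had 0.05 (SE 0.27) and Txndc5, a disulfide isomerase, -0.41 (SE 0.22, adjusted p = 0.476). P4hb, Canx, Txndc5, Sil1 and Txndc12 were named after their values were seen.

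Cytosolic co-chaperones of the list also went both ways. Unc45a, a myosin chaperone, read 396 and 241 units in wild type against 778 and 631 in the null arrays (log2 difference 1.18, SE 0.32, limma adjusted p = 0.210), and the second wild-type value lay within the range of Y-linked probes. Its wild-type values lay under the filter's cut (log2 signal 8.70) and its null values above it. Bag2, an Hsp70 nucleotide exchange factor that inhibits the ubiquitin ligase CHIP, read 75308 and 101622 units against 46837 and 54385, 1.73-fold lower (-0.79, SE 0.24, adjusted p = 0.240). Bag1 (-0.29) and Pfdn1, a prefoldin subunit (-0.30), also had both null arrays below both wild-type arrays. Stip1 (0.10) and Ahsa1 (-0.11), Hsp90 partners named after their values were seen, had overlapping groups.

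Regulators and targets of the heat shock and unfolded protein responses, kept as 1 list, went in more than 1 direction. Of 22 listed genes 20 had a probe and 18 were tested, with a median log2 difference of 0.24, and at an unadjusted p under 0.05 there were 3 higher (16.7%, beside 9.65% of all genes) and 2 lower (11.1%, beside 6.83%). With the lot as a block there were 5 higher (27.8%, beside 13.3%), with Xbp1 and Sec61b added, and 2 lower (beside 11%). The heat shock genes of the list were not among these: Hsf2, a heat shock transcription factor, had 0.66 (SE 0.34, limma adjusted p = 0.460) and Hsbp1, which binds such factors, 0.09. Ern1, which encodes the sensor IRE1, read 408 and 440 units in wild type against 1326 and 923 in the null arrays, 2.61-fold higher (1.38, SE 0.25, limma adjusted p = 0.116). Edem1, which sends misfolded glycoproteins to degradation, read 17873 and 17100 units against 29998 and 31186, 1.75-fold higher (0.81, SE 0.17, adjusted p = 0.137). Herpud1, another gene of that degradation route, had 0.51 (adjusted p = 0.283), and Xbp1, the transcription factor whose mRNA IRE1 splices and also one of the plasma cell markers above, read 32819 and 35565 units against 43308 and 49383 (0.44, SE 0.18, adjusted p = 0.362). In each of these 4 genes both null arrays were above both wild-type arrays, but the 4 were picked by their values. Of the 18 tested genes of the list this held for 8 (44.4%), beside 22.6% of all genes. Both null arrays lay below for 3 (16.7%, beside 23.1%).

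Some genes of the PERK branch read lower instead. Ddit3, which encodes the stress factor CHOP, read 7157 and 7104 units in wild type against 5070 and 4310 in the null arrays, 1.53-fold lower (log2 difference -0.61, SE 0.18, limma adjusted p = 0.247). Ppp1r15a, the phosphatase subunit GADD34 that lies downstream of CHOP, read 4078 and 2601 units against 1694 and 1596, 1.98-fold lower (-0.99, SE 0.28, adjusted p = 0.229). Atf4, the transcription factor above both, had 0.09 (SE 0.17), and Syvn1, a ubiquitin ligase of the degradation route, had -0.32. Sec61b, a translocon subunit, had 0.52 with a large lot effect (44292 and 60853 units in lot 1, 142150 and 211450 in lot 2), and its difference passed an unadjusted p under 0.05 with the lot as a block and not without it. Herpud1, Xbp1, Atf4, Hsf2 and Hsbp1 were named after their values were seen. Both lists were made by function, with earlier results of these data known. From them the naming rule took 12 genes by the size of their differences.

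**Figure D5:**
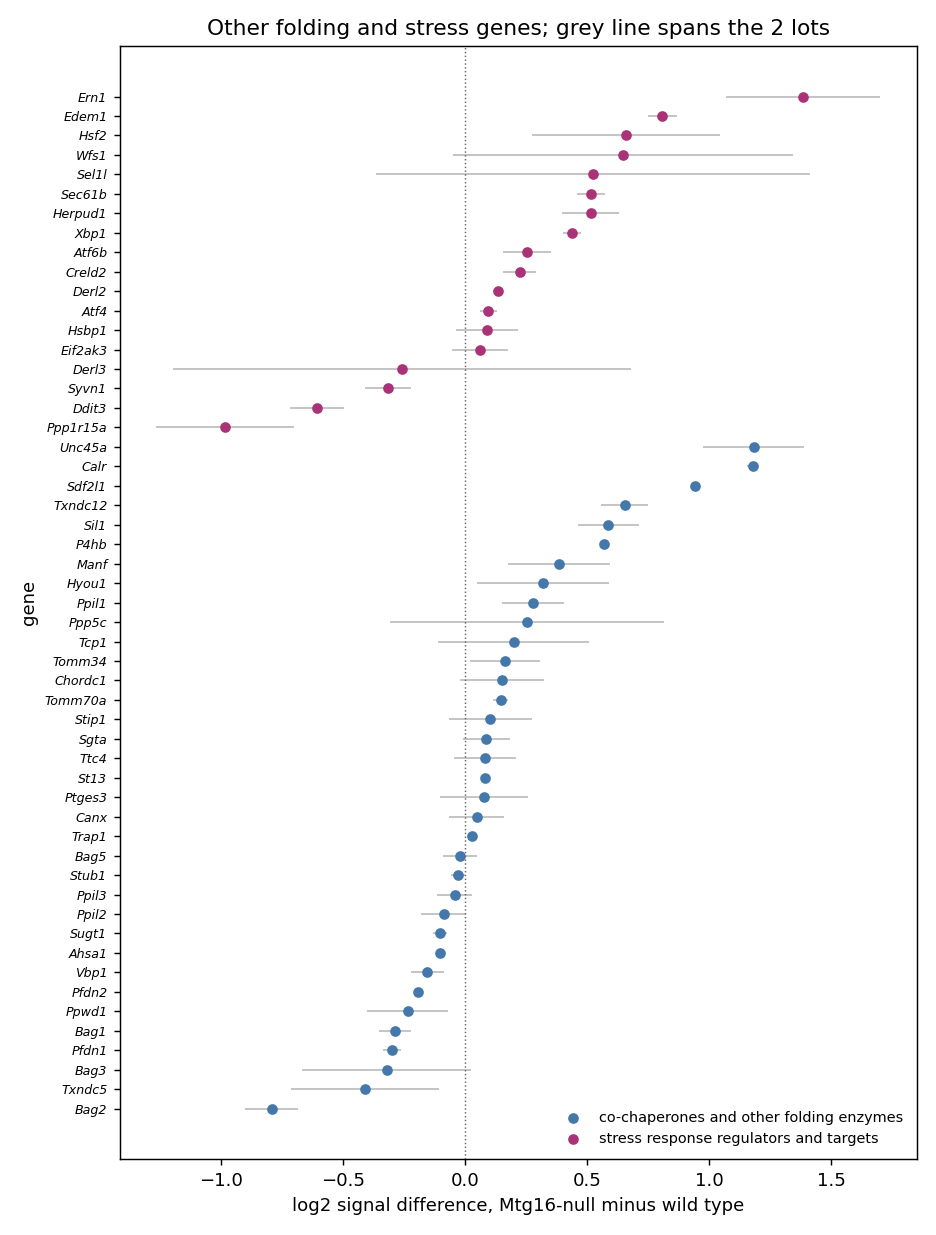
Log2 difference, null minus wild type, for the tested genes of the co-chaperone list (blue) and of the stress response list (purple), with a grey line from the lot 1 to the lot 2 value. Ern1, Unc45a and Calr lie highest, at 1.38, 1.18 and 1.18, and Ppp1r15a and Bag2 lowest, at -0.99 and -0.79.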

How the data were processed

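Probe intensity on a linear scale was taken from the value table deposited by the authors, 33012 probes on each of 4 single-colour arrays, between 28.2 and 3093946 units. The values show that they had been quantile normalized: sorted values of the arrays differ by at most 11.1 units, and the values are neither centred nor logged. The scanner software, background correction and detection calls were not given in the sources used here. Probes were named from the platform annotation (14411 with 1 symbol, 247 with several, 18354 with none); 14402 matched the RefSeq table of GRCm38.p6 by Entrez identifier, which changed 0 symbols. Probe sequences were not used here, so cross-hybridisation between related genes was not examined.

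Signals under 75.8 units (percentile 1) were raised to it before log2. Each gene was read from its probe with the highest mean signal, among the brighter 50% of probes (16506 probes, 8445 genes). The genotype term of a linear model was tested by empirical Bayes (limma 3.58.1, R 4.3.3; 2.11 prior and 2 residual degrees of freedom), with Benjamini-Hochberg adjustment over all 8445 genes and a threshold of 0.05. An exact permutation test of a single value cannot go below p = 0.333 with 2 arrays against 2, so none is given. The procedure was also run on simulated data that had no lot effect, so that run does not test it under the lot effect of these arrays. The replicate numbers pair the arrays, since the series text makes them the array lot; same-lot arrays deviated together (r = 0.50 over 8445 genes, which are not independent replicates). Fits with the lot as a block, no filter, the brightest 25%, a variance trend, cyclic loess, averaged probes and 1 array left out were alternatives. The number of arrays limits the precision. Python 3.11.15 and matplotlib 3.10.9 drew the figures.

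The members, the gene lists (endoplasmic reticulum, mitochondrial and other groups, co-chaperones, stress response genes, cell type markers) and the tests were chosen with earlier results of these data known. The naming rule took the 10 highest and 10 lowest tested members by the smaller of their within-lot differences where both lots had 1 sign, the brightest, highest and lowest of each family, the Hspd1 and Hspe1 pair, and the 3 highest and 3 lowest of each pathway list. This gave 37 members and 12 other genes. Other members were named to complete a group.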

Additional observations from a re-analysis of the deposited data

How the results depend on the processing

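With the lot as a replicate block, 9 members were higher and 6 lower at an unadjusted p under 0.05, against 7 and 5 without it. These were 13.2% and 8.82% of the members tested, beside 13.3% and 11% of all genes in that fit. At an adjusted p under 0.05, 0 members passed with the block. The calls it changed are named with their genes in the text. Among the brightest 25% of probes, 2 of the 50 members tested passed at an adjusted p under 0.05, where 5.86% of all genes passed. Under a variance trend 1 of 68 passed, beside 3.49% of all genes. The Dnajb median of -0.21 was -0.15 with no filter and -0.044 with the brightest 25% of probes, which tested 11 and 3 members. Within-lot counts could not be made with an array left out.

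Leaving out 1 array in turn leaves a single array whose spread is taken from the other genotype. It gave 3 to 6 members higher (3 without either of the null arrays) and 1 to 5 lower (1 without null array 1) at an unadjusted p under 0.05. The count for the endoplasmic reticulum group ran from 1 to 4; its alternatives were chosen after seeing the data. Over these fits the median of all members ran from -0.036 to 0.025, of Hsp from -0.13 to 0.093, of Dnaja from -0.28 to -0.14, of Dnajb from -0.38 to 0.0069, of Dnajc from -0.18 to 0.0097, of Fkbp from 0.32 to 0.70, of Ppi from -0.086 to 0.12, of Pdia from 0.26 to 0.94 and of Cct from -0.092 to 0.031.

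Among genes named by the rule, the sign turned in some of these fits, with ranges of -1.41 to 0.028 for Dnajc9, -0.23 to 0.18 for Dnaja2, -0.24 to 0.15 for Dnajb11, -0.31 to 0.45 for Dnajb9, -0.026 to 0.20 for Fkbp3, -0.59 to 0.16 for Fkbp8, -0.10 to 0.24 for Ppia, -0.0045 to 0.26 for Ppid, -0.46 to 0.16 for Cct3, -0.046 to 0.031 for Cct2 and -0.38 to 1.41 for Sec61b. Among the other genes mentioned it turned for Hspa9 (-0.24 to 0.47), Fkbp4 (-0.31 to 0.22), Ppib (-0.38 to 0.12), Dnajc11 (-1.34 to 0.62), Hspa1l (-1.01 to 0.37) and Dnajb5 (-0.72 to 0.15), and for Ppif, Dnajb6, Dnaja4, Dnajc5, Dnajc7, Dnajc14, Dnajc15, Dnajc16, Dnajc28, Hspa2, Hspa4, Hspbp1, Canx, Stip1, Tcp1 and Hsbp1. The cause was not tested. Few arrays limit every single-gene call.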

Other observations

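Several members had genotype differences of opposite sign in the 2 lots. Dnajc11, a mitochondrial membrane J protein, read 3207 and 12481 units in wild type against 7421 and 3285 in the null arrays, a log2 difference of 1.21 in lot 1 and -1.93 in lot 2. Dnajc28 had -0.65 and 0.65, and Hspa4, an Hsp110 gene, -0.34 and 0.73. In all, 18 of the 68 tested members had opposite signs in the lots, as did 2480 of the 8445 genes tested.

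Besides Hspd1, the one member with more than 1 probe was Dnajc5, a J protein chaperone of synaptic vesicle release. It gave a difference of 0.05 on the brighter probe and 0.39 on the dimmer one. Ppic, the cyclophilin left out of the members, read 1873 and 1657 units in wild type against 8496 and 7109 in the null arrays, 4.41-fold higher (limma adjusted p = 0.0744). That is a larger difference than any of the 5 tested cyclophilins showed.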
